A study of Homo sapiens with 6 samples.

Results

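The actin filament, contractile and bundling genes were followed in SN12C, a human renal carcinoma cell line, with and without knockdown of the transcriptional co-activators YAP and TAZ. The set was a list of 59 genes, chosen by symbol with earlier results of these data known. Of these, 50 (81 probes) were measured among the 11646 genes of the arrays. The knockdown cells carried the doxycycline-inducible pTripz vector with short hairpin RNAs to YAP (YAPsh) and to TAZ (TAZsh), together with GFP-luc. The control cells carried pTripz without these hairpins, also with GFP-luc, and are labelled as wild type for YAP/TAZ. Both arms received doxycycline (+Dox) for 3 days or more, grew in medium with 10% serum and spent their last 24 hours in medium without it. Each arm had 3 Illumina bead arrays, which the series calls technical repeats, so every error and p-value below measures the spread between arrays and not between cultures. The series' title places the comparison in tumor cells lacking NF2, the gene of merlin, which acts upstream of the Hippo kinases, and asks about metabolism and signalling.

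Actin monomers assemble into filaments that tropomyosins and caldesmon coat, alpha-actinin and fascin tie into bundles, and non-muscle myosin II pulls on. Many genes of this machinery are known targets of SRF, a transcription factor whose cofactors, the MRTF proteins, are held in the cytoplasm by free actin. Filament tension is in turn known to favour the presence of YAP and TAZ in the nucleus, where they act with TEAD transcription factors.

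Values are log2 normalised intensities, and a change is the mean of the knockdown arrays minus that of the control arrays. A probe was kept where its detection p-value, a measure of brightness over background, was under 0.05 on 3 or more of the 6 arrays. Changes were tested with limma over all 20348 kept probes with Benjamini-Hochberg adjustment. A gene was called by its brightest kept probe at an adjusted p under 0.05, and "fell" and "rose" are used only of called genes. The arrays detected 19674 to 20971 of their 47315 probes each, and log2 intensities correlated at 0.981 or above within an arm and at 0.962 or below between arms, across probes, which are not independent. YAP1 read 7.33, 6.77 and 6.56 on the knockdown arrays, against 8.47, 8.26 and 8.47 on the control arrays, a change of -1.51 ± 0.19 (SE, adjusted p = 0.000607). WWTR1, the gene of TAZ, had no kept probe that the annotation names. Of the 10 renal epithelial markers 5 were kept, and their summed linear level was 938 to 1120 on the knockdown arrays and 3350 to 3480 on the control arrays. KRT19 (-3.05) and KRT8 (-1.07) fell, whereas PAX8, KRT18 and EPCAM were not called. The endothelial list had none of its 6 markers kept. Of the 9 leukocyte markers CD14 and CD68 were kept, with summed levels of 1860 to 2200 on the knockdown arrays and 1810 to 2080 on the control arrays, and PTPRC was not kept. LUM, THY1 and COL1A1 were kept of the 6 fibroblast markers, with summed levels of 567 to 628 on the knockdown arrays and 956 to 1060 on the control arrays. CD14 (0.71) and LUM (0.53) rose, THY1 (-0.83) and COL1A1 (-0.56) fell, and CD68 (-0.04) was not called. The fibroblast sum was mostly THY1, with means of 9.09 on the knockdown arrays and 9.92 on the control arrays. The part of these differences in the changes below was not tested.

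Most of the measured actin genes were lower in the knockdown cells. Of the 50, 29 fell, 3 rose and 18 were not called. These calls make 64.0% of the measured members, against 36.9% of all genes. Because the list was chosen with earlier results of these data known, its shares describe it and are no independent support. Over all genes, 18.0% were called lower and 18.9% higher. The median change was -0.50 for the members and 0.03 for all genes, and 43 of the 50 members had a negative change. By probe, 48 of 81 were called lower and 3 higher, against 16.5% of all kept probes called lower and 32.3% called in either direction. The arms did not overlap for 38 members, against 50.9% of all genes. Of these 38, 34 were lower and 4 higher in knockdown cells, where all genes had 24.8% lower and 26.2% higher without overlap. Called falls of at least 1 on the log2 scale were found for 9 members, against 4.81% of all genes: FSCN1, CALD1, MYLK, TAGLN2, TPM1, DIAPH3, ACTN1, MYL9 and ANLN. No member rose by as much, which 3.57% of all genes did. With the arrays scaled to a common median in place of quantile normalisation, 11 members were called, all lower, and the median was -0.52. These were FSCN1, CALD1, MYLK, TAGLN2, TPM1, DIAPH3, ACTN1, MYL9, ANLN, ACTB and ARPC5, and the 21 members that lost the call kept their sign. Of the 81 probes, 70 were detected on all 6 arrays and 5 on exactly 3, of which 4 (2 of CALD1, 1 of MYLK and 1 of DIAPH3) were detected on control arrays alone. Probes detected on fewer arrays were not analysed here. In these bulk RNA samples, fewer cells of a type and less RNA per cell cannot be told apart.

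**Figure D1:**
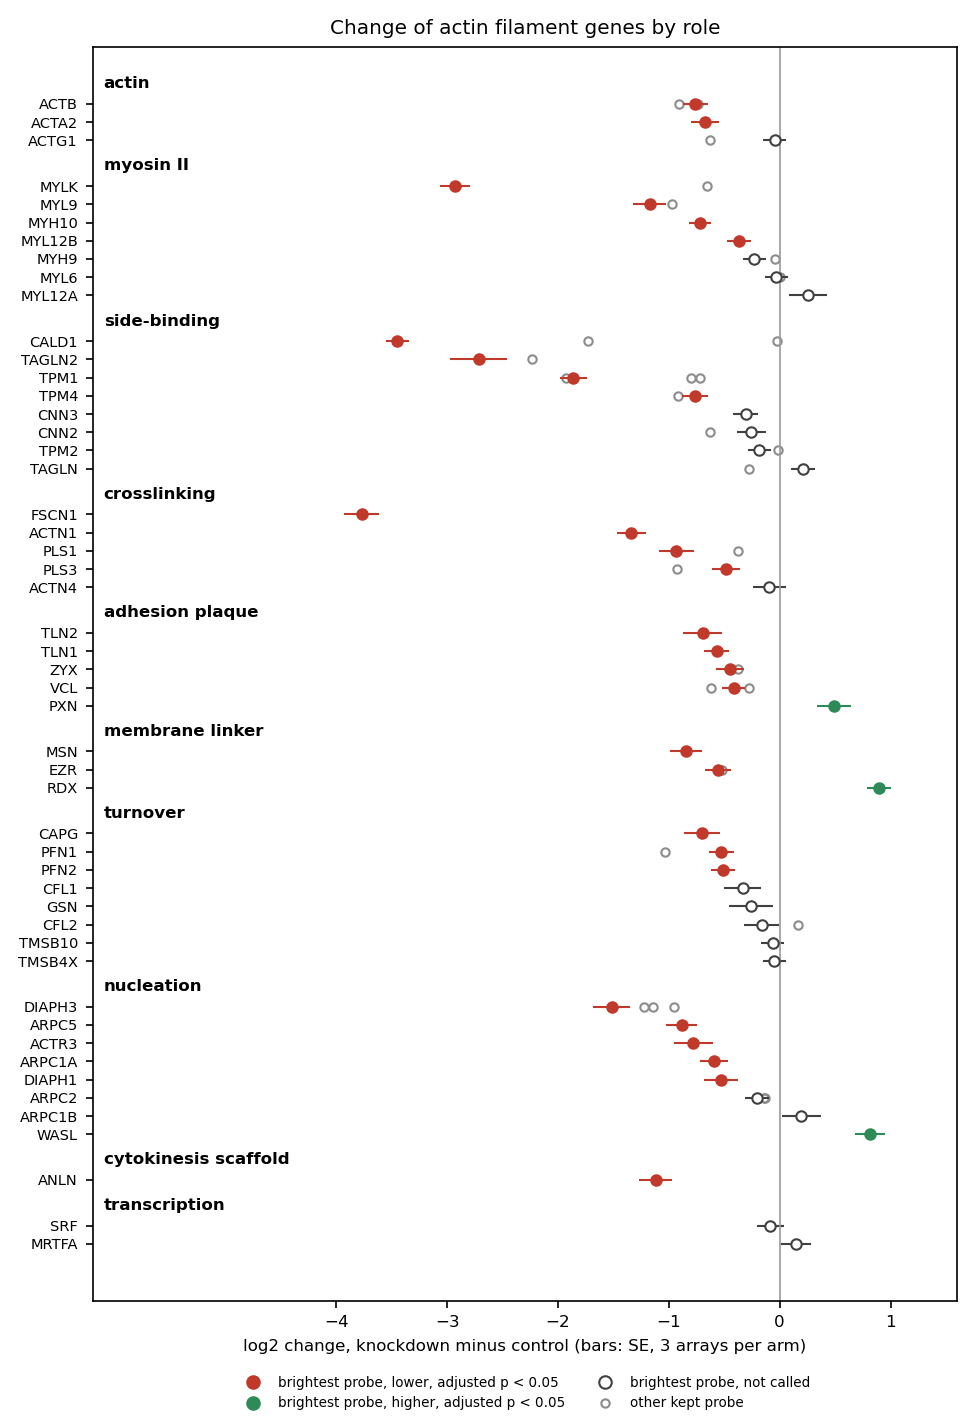
Change of each measured member (horizontal axis, log2 change, knockdown minus control, with its SE from 3 arrays per arm), grouped by role. Filled red and green points are the brightest probes of genes called lower and higher, open dark points those of genes not called, and open grey points other kept probes. Of the 50 brightest probes 43 lie left of zero, and FSCN1 lies farthest left at -3.77.

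The members that fell were set beside the sequence at their starts. The CArG box, the 10-base site that SRF binds, was searched on both strands from 250 bases before to 50 bases after each annotated gene start, in RefSeq sequence of build GRCh38.p14. It was present in 8 of the 93 such promoters of the 52 members that had an entry (8.60%), against 454 of 35116 promoters of all genes (1.29%). The box stood in 3 of the 48 promoters of members that fell (6.25%) and in 3 of the 31 promoters of members not called (9.68%). The 6 measured genes that carry it are printed below, since they include both members that fell and members that did not. Each sequence runs 5' to 3' on the gene's strand, with the matches in capitals, and lies upstream of the start.
MYLK (chr3:123620608-123620667, minus strand): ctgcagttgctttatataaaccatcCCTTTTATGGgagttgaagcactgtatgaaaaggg
ACTN1 (chr14:68977703-68977762, minus strand): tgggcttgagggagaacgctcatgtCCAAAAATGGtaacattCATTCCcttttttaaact
TPM4 (chr19:16067340-16067399, plus strand): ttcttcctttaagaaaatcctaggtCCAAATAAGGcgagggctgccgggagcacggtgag
ACTG1 (chr17:81512859-81512918, minus strand): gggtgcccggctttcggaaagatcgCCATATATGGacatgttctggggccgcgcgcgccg
CNN2 (chr19:1026494-1026553, plus strand): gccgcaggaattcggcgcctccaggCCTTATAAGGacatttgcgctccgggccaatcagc
SRF (chr6:43171214-43171268, plus strand): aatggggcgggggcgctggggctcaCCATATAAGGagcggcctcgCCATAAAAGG
MYLK (-2.93), ACTN1 (-1.34) and TPM4 (-0.77) fell. ACTG1 (-0.05), CNN2 (-0.25) and SRF itself (-0.08), whose window holds a pair of boxes, were not called by their brightest probes. The second capitalised run of the ACTN1 window, CATTCC, is the reverse complement of GGAATG, the core of the site that TEAD factors bind. ACTG2 and FLNA also carry a CArG box and had no kept probe. ACTB, MYL9, TAGLN, FSCN1, PFN2, ARPC1B and VIL1 had no entry. A match is a description of the letters and not of occupancy.

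GGAATG, also searched on both strands, was found in 16 of the 93 member promoters (17.2%), against 14.0% of all promoters. It stood in 11 of the 48 promoters of members that fell (22.9%) and in 3 of the 31 of members not called (9.68%). Some genes have several promoters. By gene, it was held by 9 of the 25 members with an entry that fell. Of the 16 with an entry that were not called, 3 held it: MYH9, CNN3 and MYL12A. GGAATG and the CArG box may share letters, and in the 2 member promoters that held both, those of ACTN1 and MYLK, the matches did not. CALD1 and DIAPH3 are shown because they hold the match and are among the members with the largest falls. TAGLN2 (-2.72), TPM1 (-1.86) and ANLN (-1.12), also among those, had entries without a match. PXN, which rose (0.49), held a match, as did FLNC, which had no kept probe. For CALD1, 2 of its 4 annotated promoters hold the match.
CALD1 (chr7:134745400-134745455, plus strand): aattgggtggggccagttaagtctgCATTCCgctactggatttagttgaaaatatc
CALD1 (chr7:134779415-134779470, plus strand): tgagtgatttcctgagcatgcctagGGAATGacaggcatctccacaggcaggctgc
DIAPH3 (chr13:60013190-60013245, minus strand): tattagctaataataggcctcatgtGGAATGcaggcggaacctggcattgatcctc

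Fascin and alpha-actinin, which pack filaments into bundles, were among the genes that fell. FSCN1 encodes fascin, the bundling protein of filopodia. Its intensity was 7.19, 7.75 and 7.57 on the knockdown arrays, against 11.19, 11.33 and 11.31 on the control arrays. The arms were far apart, and the change was -3.77 ± 0.15 (SE, adjusted p = 1.8e-06), a 13.7-fold fall. ACTN1, the alpha-actinin of stress fibres and adhesions, gave 8.27, 8.63 and 8.61 on the knockdown arrays, against 9.76, 9.89 and 9.87 on the control arrays. This 2.53-fold fall (-1.34 ± 0.13 SE, adjusted p = 0.000141) left no overlap between the arms. Its paralog ACTN4 changed by -0.09 (adjusted p = 0.686) and was not called. The plastins, calcium-regulated bundling proteins, also fell by their brightest probes, with -0.93 for PLS1 and -0.48 for PLS3. That PLS3 probe missed the threshold without 1 array in 4 of 6 cases (adjusted p up to 0.0812). A second PLS3 probe was called at -0.93 (adjusted p = 0.000621). The second, dimmer PLS1 probe was not called (-0.38, adjusted p = 0.362), and its arms overlapped. Of the crosslinking group 5 of 9 members were measured, 4 fell and 1 was not called, with a median of -0.93. FLNA, FLNC, LCP1 and VIL1 had no kept probe that the annotation names.

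Proteins that lie along the filament split into genes that fell and genes that were not called. Of 8 measured, 4 fell and 4 were not called, where 36.9% of all genes were called. The median of the 8 was -0.54. One of the genes that fell was CALD1. Its brightest probe was kept through the control arrays alone, so that call is no support for a difference. TAGLN2, transgelin 2, an actin-binding protein of the calponin family, had 7.01, 7.82 and 8.17 on the knockdown arrays, against 10.36, 10.43 and 10.37 on the control arrays by its brighter probe. The arms did not overlap, and the change was -2.72 ± 0.26 (SE, adjusted p = 0.000123, 6.58-fold). Array 1 was the lowest of the knockdown arm. The other TAGLN2 probe gave 5.10, 5.97 and 5.50 on the knockdown arrays, against 7.65, 7.84 and 7.79 on the control arrays, a change of -2.24. TAGLN itself, transgelin, a smooth muscle marker, was 0.21 by its brighter probe and -0.28 by the other, and neither was called. TPM4, a short tropomyosin, fell by both of its probes (-0.77 and -0.92), while TPM2 had -0.18 and -0.01 and was not called. The calponins CNN2 (-0.25, adjusted p = 0.177) and CNN3 (-0.31, adjusted p = 0.0641), which also bind along filaments, missed the threshold by their brightest probes. A second CNN2 probe was called at -0.63 (adjusted p = 0.00507), and CNN3 passed with the array number as a block (adjusted p = 0.0463). TPM3, CNN1 and TAGLN3 had no kept probe named for them.

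CALD1 encodes caldesmon, which binds actin, tropomyosin and myosin and restrains the motor, and 3 of its probes were kept. Probe ILMN_1730487 had 4.36, 4.22 and 4.35 on the knockdown arrays, against 7.74, 7.84 and 7.70 on the control arrays. It was detected on none of the 3 knockdown arrays, so its fall is a bound of at least 9.37-fold, taken against the lowest detected value of each array. The fitted change was -3.45 ± 0.11 (SE, adjusted p = 4.77e-07), a fitted fold of 10.9, which was 2.88 without background correction and 3.32 with the mean of the 3 probes. Probe ILMN_2324002 was also undetected on the knockdown arrays, with 4.19, 4.25 and 4.18 on the knockdown arrays, against 5.81, 6.29 and 5.70 on the control arrays, a difference of at least 2.64-fold. Because both probes were kept through the control arrays alone, a difference between the arms was built into their selection, and their calls are no support for it. Probe ILMN_1717990 read 4.58, 4.67 and 4.67 on the knockdown arrays, against 4.45, 4.74 and 4.78 on the control arrays. Its arms overlapped, its change was -0.02 (adjusted p = 0.911), and every value lay close to the lowest detected value, which was 4.50 to 4.56 over the 6 arrays. The change of the brightest probe differed from that of ILMN_1717990 by -3.43 (adjusted p = 2.39e-05) and from that of ILMN_2324002 by -1.72 (adjusted p = 0.00102), in a test of the difference between probes on each array. The brightest probe and ILMN_2324002 were undetected on the knockdown arrays, and ILMN_1717990 lay near the lowest detected value. Both differences therefore depend on that limit and are no support for an unequal response of the probes. Which transcripts each probe reads was not analysed here.

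TPM1, a tropomyosin of stress fibres, had 4 kept probes in a bright and a dim pair. ILMN_2360710 gave 9.25, 8.98 and 9.29 on the knockdown arrays, against 10.98, 11.11 and 11.01 on the control arrays, a 3.64-fold fall (-1.86 ± 0.12 SE, adjusted p = 1.91e-05). ILMN_1716687 gave 9.16, 8.95 and 9.11 on the knockdown arrays, against 11.02, 10.97 and 11.01 on the control arrays, a 3.81-fold fall (adjusted p = 8.19e-06). Both bright probes kept the arms well apart. ILMN_1685339 had 6.15, 5.66 and 5.52 on the knockdown arrays, against 6.98, 6.41 and 6.09 on the control arrays, and ILMN_2278152 had 6.11, 5.36 and 5.19 on the knockdown arrays, against 7.11, 6.15 and 5.81 on the control arrays. In both, array 1 was the highest of its arm, the arms overlapped, and the changes of -0.72 ± 0.24 (adjusted p = 0.0526) and -0.80 ± 0.35 (adjusted p = 0.116) were not called. With the array number as a block, both passed (adjusted p = 0.00134 and 0.00108). Without knockdown array 1 they also passed (0.0211 and 0.0387), and the first of them did without control array 3 (0.0294). The change of the brightest probe differed from that of ILMN_1685339 by -1.15 (adjusted p = 0.0452). This call was lost without 1 array in 5 of 6 cases (adjusted p from 0.0620 to 0.152) and held without control array 1 (0.0172) and with the array number as a block (0.000980). From the change of ILMN_2278152 it differed by -1.07 (adjusted p = 0.151), a difference that passed with the block (0.00180) and without control array 1 (0.0330).

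**Figure D2:**
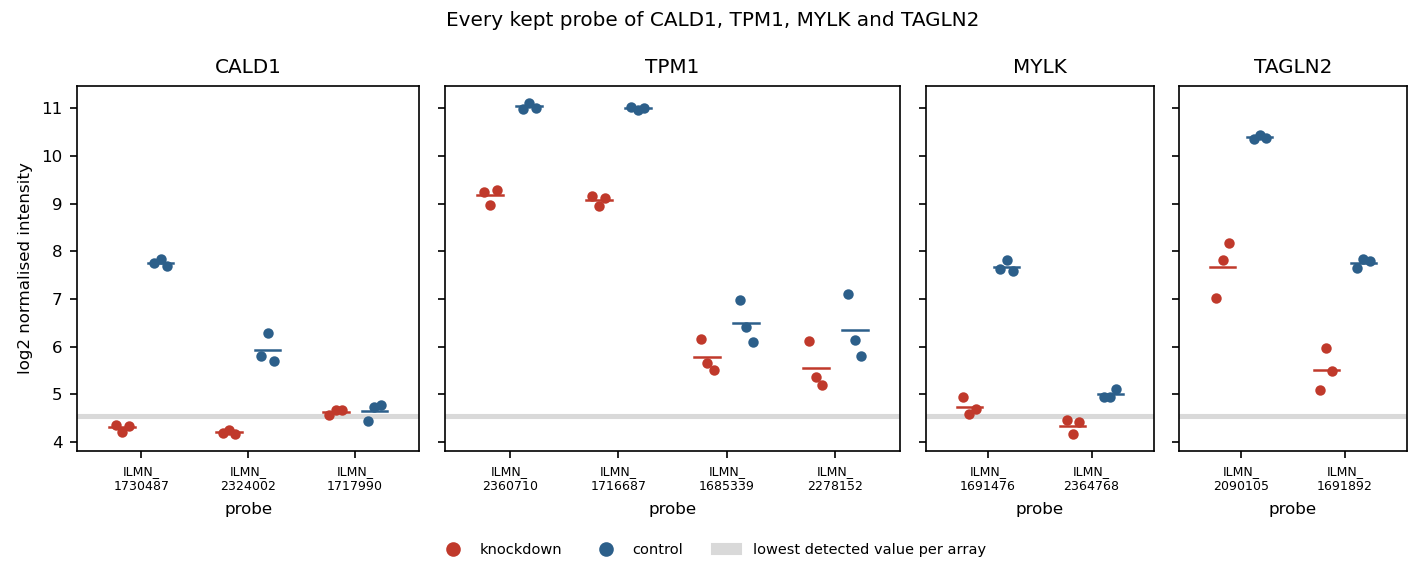
Log2 normalised intensity (vertical axis) on each array for every kept probe of CALD1, TPM1, MYLK and TAGLN2, knockdown in red left of control in blue, with a line at each arm's mean. The grey band is the lowest detected value over the 6 arrays, 4.50 to 4.56. The knockdown values of 2 CALD1 probes lie under it, and the third CALD1 probe lies near it in both arms.

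Parts of the motor and its activating kinase also fell. MYLK encodes myosin light chain kinase, which switches on contraction in smooth muscle and non-muscle cells. Probe ILMN_1691476 had 4.96, 4.58 and 4.69 on the knockdown arrays, against 7.63, 7.81 and 7.59 on the control arrays, a 7.63-fold fall (-2.93 ± 0.13 SE, adjusted p = 2.93e-06). The knockdown values stood close to the lowest detected value, and without background correction the fold was 2.53. A second, dim MYLK probe, detected on control arrays alone, read 4.46, 4.17 and 4.42 on the knockdown arrays, against 4.94, 4.95 and 5.12 on the control arrays (at least 1.39-fold). The change of the brighter probe minus that of the dim one was -2.28 (adjusted p = 0.000206), and with the mean of both the fold was 3.46. The dim probe was kept through the control arrays alone, so the difference between the probes is no support for an unequal response. MYL9, a regulatory light chain that this kinase phosphorylates, was 7.30, 7.30 and 7.70 on the knockdown arrays, against 8.43, 8.75 and 8.64 on the control arrays, and the arms did not overlap. It fell 2.25-fold (-1.17 ± 0.15 SE, adjusted p = 0.000589), with -0.97 by its second probe. Of the heavy chains, MYH10 (non-muscle myosin IIB) fell by 0.72 on the log2 scale, and MYH9 (myosin IIA) was -0.23 and not called. Among the remaining light chains MYL12B fell (-0.37, missed without 1 array in 5 of 6 cases, adjusted p up to 0.103), and MYL12A (0.26) and the essential light chain MYL6 (-0.03) were not called. MYL12A and MYL12B are near-identical genes, and whether their probes read each other's RNA was not tested. Of all 7 myosin II members measured, 4 fell and 3 were not called (57.1% called, against 36.9% of all genes). The median was -0.37.

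The actins themselves were split. ACTB, cytoplasmic beta-actin, fell by each of its 3 probes, at -0.76, -0.73 and -0.91. Its brightest probe had 12.14, 12.33 and 12.32 on the knockdown arrays, against 12.90, 13.12 and 13.04 on the control arrays, without overlap. ACTG1, cytoplasmic gamma-actin, was -0.05 (adjusted p = 0.772) by its brightest probe, with 13.21, 13.11 and 13.20 on the knockdown arrays, against 13.23, 13.17 and 13.26 on the control arrays. A second ACTG1 probe was called at -0.63 (adjusted p = 0.0319), and the difference between the probes was 0.58 (adjusted p = 0.171), which passed with the array number as a block (0.0285). The actin coding sequences are nearly alike, and whether the probes of one read the RNA of another was not tested. ACTA2, the smooth muscle alpha-actin, fell by 0.67 on the log2 scale (adjusted p = 0.00491). ACTG2 had no kept probe named for it.

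**Figure D3:**
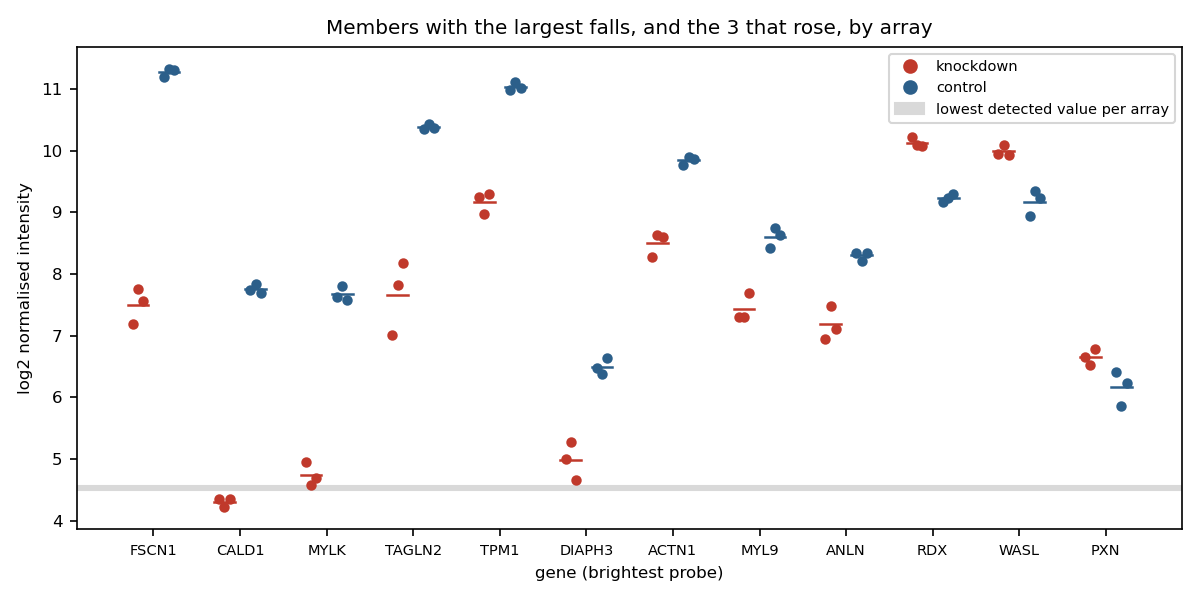
Log2 normalised intensity (vertical axis) of the brightest probe on each array for the 9 members with called falls of at least 1 and the 3 members that rose, knockdown in red left of control in blue, with a line at each arm's mean. The grey band is the lowest detected value per array. In each of the 12 genes the arms are separate, and RDX, WASL and PXN alone are higher in knockdown cells.

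All 5 adhesion plaque genes were called, 4 lower and 1 higher, against 36.9% of all genes called. VCL (vinculin, -0.42), TLN1 (talin 1, -0.57) and TLN2 (talin 2, -0.69), which link integrins to filaments, fell, as did ZYX (zyxin, -0.45), a LIM protein of strained stress fibres. PXN, the adaptor paxillin, rose, with 6.66, 6.52 and 6.78 on the knockdown arrays, against 6.41, 5.86 and 6.23 on the control arrays. Its arms came close without overlapping, and its adjusted p of 0.0428 was the nearest to the threshold among the called members. Without 1 array, VCL and ZYX each missed the threshold in 4 of 6 cases (adjusted p up to 0.0629 and 0.0998), PXN in 5 (up to 0.131) and TLN2 without knockdown array 3 (0.0561). The TLN2 probe was detected on 1 of the 3 knockdown arrays. Its knockdown mean of 4.48 lay near the lowest detected value, which was 4.50 to 4.56. The membrane linkers of the ERM family were also all called, in opposite directions. EZR, ezrin, fell by 0.55 and MSN, moesin, by 0.85 on the log2 scale. RDX, radixin, rose 1.86-fold, with 10.22, 10.10 and 10.08 on the knockdown arrays, against 9.17, 9.24 and 9.30 on the control arrays (0.90 ± 0.11 SE, adjusted p = 0.000415).

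The formins DIAPH3 and DIAPH1 and 3 subunits of the Arp2/3 complex fell. Of 8 nucleation genes measured, 5 fell and WASL rose (75.0% called, against 36.9% of all genes), with a median of -0.56. DIAPH3, a formin that elongates unbranched filaments, had 5.01, 5.28 and 4.65 on the knockdown arrays, against 6.47, 6.38 and 6.64 on the control arrays. The arms did not overlap (-1.52 ± 0.17 SE, adjusted p = 0.000287, 2.86-fold, and 1.48-fold without background correction), and its other probes gave -1.15, -1.22 and -0.96. The last of these was kept through the control arrays alone, so that a difference was built into its selection. DIAPH1, a related formin, fell by 0.53 on the log2 scale and missed the threshold without 1 array in 5 of 6 cases (adjusted p up to 0.0994). Within the Arp2/3 complex, which branches filaments, ARPC5 (-0.88), ACTR3 (-0.78) and ARPC1A (-0.59) fell, ARPC2 (-0.21) and ARPC1B (0.20) were not called (ARPC1B was without knockdown array 1, at 0.41, adjusted p = 0.0326), and ACTR2 had no kept probe named for it. WASL, N-WASP, an activator of that complex, rose, with 9.95, 10.09 and 9.92 on the knockdown arrays, against 8.95, 9.34 and 9.23 on the control arrays (0.81 ± 0.13 SE, adjusted p = 0.0021). Outside the members, the Arp2/3 subunits ARPC3 (-0.15) and ARPC4 (-0.05) and the paralogs ARPC5L (-0.15) and ACTR3B (-0.14) were not called. Among the 8 turnover genes, 3 fell and 5 were not called, a share of 37.5% called against the 36.9% of all genes. The monomer-binding profilins PFN1 (-0.53) and PFN2 (-0.51) and the capping protein CAPG (-0.70) fell. The severing proteins CFL1 (-0.33), CFL2 (-0.16) and GSN (-0.25) were not called, nor were the monomer-sequestering thymosins TMSB4X (-0.05) and TMSB10 (-0.06).

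ANLN encodes anillin, a scaffold of the cytokinetic ring. It had 6.95, 7.48 and 7.11 on the knockdown arrays, against 8.35, 8.21 and 8.34 on the control arrays, a 2.17-fold fall without overlap (-1.12 ± 0.15 SE, adjusted p = 0.000757). Beside it, all 23 measured genes of a list of cytokinesis and mitosis genes fell, against 18.0% of all genes. That list was also chosen with earlier results of these data known. Their median was -1.47, and KIF20A (-2.86), CCNB2 (-2.53), AURKB (-2.40) and BUB1 (-2.11) were among them. The part of dividing cells in the changes of ANLN and DIAPH3 was not tested. SRF (-0.08) and its cofactor MRTFA (0.15) were not called at the RNA level.

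Of 16 members above the 95th percentile of mean intensity of all kept probes, 6 were called and 10 were not, against 30.5% called of all genes that bright. TMSB4X, TMSB10, ACTG1, MYL6, MYH9 and CFL1 were among the 10. Of the 23 members with more than 1 kept probe, the brightest probe and another had the same sign in 28 of 31 pairs. The change differed between probes in 4 pairs, of CALD1, MYLK and TPM1, against 7.28% of 3847 pairs over all genes. In 3 of these 4 pairs the other probe was undetected on the knockdown arrays or lay near the lowest detected value in both arms. Those 3 pairs are no support for an unequal response. Where both probes were detected on the 6 arrays, 5.09% of pairs over all genes differed, and the TPM1 pair was the only one among 22 pairs of members. ACTG1, CALD1, CNN2, PLS1, TPM1 and VCL each had a called and an uncalled probe.

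Other genes of the actin machinery stood in 6 lists that share no gene with the members and were also chosen with earlier results known. Of 212 listed, 153 were measured, 43 fell and 23 rose (43.1% called, against 36.9% of all genes). Their median change was -0.16. With median scaling 18 fell and 5 rose, whereas 28 fell and 19 rose without control array 3. Other nucleators and branch regulators had 6 falls and 3 rises among 32, or 28.1% called, below the 36.9% of all genes. BAIAP2L1 (-2.54), a membrane-bending adaptor, and CYFIP2 (-1.54), of the WAVE complex, fell, and COBLL1 (1.23) rose. The other rises were the formins FMNL2 (1.01) and FMN2 (0.53). FHOD3, also a formin, fell at least 2.59-fold. Its probe was kept through the control arrays alone, so a difference was built into its selection and its call is no support for it.

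Turnover and capping proteins outside the members had 10 falls and 2 rises among 21 (57.1% called, against 36.9% of all genes). Their median was -0.39. COTL1 (-1.37), a coactosin-like protein, CORO2A (-1.27), a coronin, SVIL (-1.13), supervillin, and CAP2 (-0.99), a cyclase-associated protein that recycles monomers, fell, while ADD1 (0.62), adducin 1, and CAPZA2 (0.38), a subunit of capping protein, were the 2 that rose. Other crosslinkers and cortical linkers were evenly divided, with 7 falls and 6 rises among 26. AFAP1L2 (-2.43) and SHROOM2 (-1.10) fell, whereas TRIOBP (1.54), a bundling protein, and SHROOM3 (0.98) rose. Other focal adhesion proteins had 6 falls and 5 rises among 29, or 37.9% called, close to the 36.9% of all genes. RSU1 (-1.46) and PARVA (-1.07), of the complex around integrin-linked kinase, and TRIP6 (-0.76), a zyxin relative, fell, and KANK2 (1.38), a talin-binding protein, rose. The other rises were KANK4 (0.65), SORBS3 (0.61), which encodes the vinculin-binding vinexin, PTK2 (0.59), focal adhesion kinase, and TNS3 (0.59), a tensin. Among 11 other smooth muscle genes and SRF cofactors, 4 fell and 3 rose (63.6% called, against 36.9% of all genes). PPP1R14A (-1.41), an inhibitor of myosin phosphatase, and SMTN (-0.64), smoothelin, fell, as did SCAI (-0.53), a repressor of MRTF, and PPP1R14B (-0.37). MRTFB (1.10), a cofactor of SRF, FBXO32 (0.86), a ubiquitin ligase, and MYL6B (0.51), a myosin light chain, rose.

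**Figure D4:**
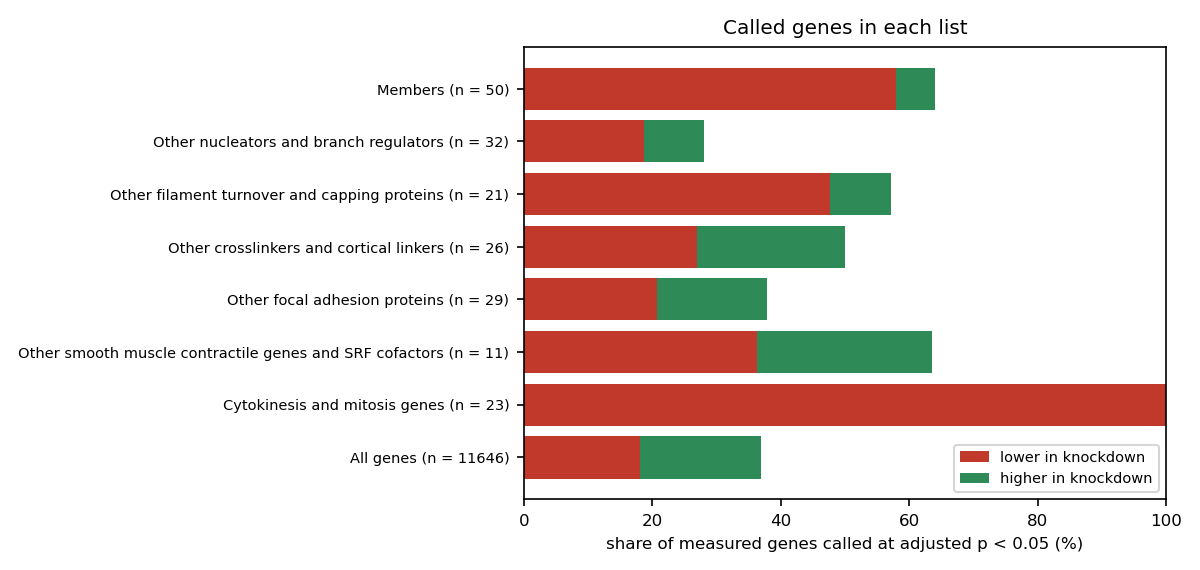
Share of measured genes called at an adjusted p under 0.05 (horizontal axis, percent) in the members, 6 other lists and all genes, split into genes lower (red) and higher (green) in knockdown cells. The members have 64.0% called, 29 lower and 3 higher, against 36.9% of all genes, which divide almost evenly.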

How the data were processed

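The deposited intensity table holds the brightness of each probe without normalization and a detection p-value per array, per the file headers. Its 48202 lines included 887 without a probe identifier, which were dropped. The authors also deposited normalized log2 values, for which limma is named in the submitters' processing notes, without a version. Further steps and a genome build were not stated in these sources. Intensities were corrected by normexp with the detection p-values (offset 16), quantile-normalized and brought to log2 (neqc, limma 3.58.1, R 4.3.3). The 20348 kept probes were exactly those of the authors' log2 table, whose values differed from these by at most 0.0238.

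Arms were taken from the YAP/TAZ status in the labels and compared with lmFit and eBayes, with no other term and two-sided p-values. Probes of 1 gene were compared by their difference on each array over 3847 pairs. The platform annotation gave 1 symbol to 15493 kept probes and several to 4, and 4851 were unnamed there. Through Entrez identifiers, 15484 were matched and 0 symbols changed. A probe undetected on all arrays of an arm gave a bound. The steps were tested on simulated data. The number of arrays limits the precision, and no slide is named in the files. The data bear out a pairing of the arrays by number only in part. For knockdown arrays 1 and 3, deviations from the arm's mean correlated most with the control array of the same number (0.629 and 0.464). Knockdown array 2 correlated at 0.252 with control array 2 and at 0.377 with a control array of another number. Results with the array number as a block rest on that pairing. Alternatives covered background correction, scaling, probe filter, prior, block, probe rule and each array left out.

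The members and the lists were chosen with earlier results of these data known. Values on every array are given for all probes of CALD1 and TPM1 and for members with called changes of at least 1, other members are named with their change, and of each other list up to 4 genes with the largest called changes without overlap are named, and the genes of a count of 5 or fewer. YAP1 checks the labels. Of the 6 lists of other actin genes, 1 enters the total and is not reported here by itself. Arrays of further genes and probes (TAGLN2, MYLK, ACTB, ACTG1, RDX, WASL, PXN) were added after their values were seen. So were the changes of ARPC3, ARPC4, ARPC5L and ACTR3B.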

Additional observations from a re-analysis of the deposited data

How the results depend on the processing

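Across 16 planned settings no member changed sign where it was called. Median scaling in place of quantile moved the counts most: 11 members fell and 0 rose in limma (24 and 3 at an unadjusted p under 0.05), against 29 and 3, and 18 other actin genes fell and 5 rose, against 43 and 23, while 1071 of all genes were called, against 4298, and the members' median was -0.52. Of the 32 called members, 21 lost the call there and kept their sign, and the other 11 kept it under every setting that held them (CALD1 has no probe detected on all 6 arrays). Leaving out 1 array gave 24 to 27 members that fell, and MYL12B, PLS3, VCL, ZYX, TLN2, PXN and DIAPH1 each missed the threshold without at least 1 array, with adjusted p from 0.0502 (DIAPH1) to 0.131 (PXN). Other actin genes that fell numbered 28 to 41, the fewest without control replicate 3. Of the probe pairs, 4 differed, and 3 to 5 with 1 array left out, when a TAGLN2 pair passed without knockdown replicate 3 (0.0393). Without background correction 11 differed, and with probes detected on all 6 arrays 0 did in limma (7 of 22 pairs at an unadjusted p under 0.05), the CALD1 and MYLK pairs being left out by that filter. With the replicate block, 9 pairs differed and 30 members fell and 3 rose. The replicate block gave 50 falls and 29 rises of other actin genes. With that block the pairs of ACTG1, PFN1, PLS1 and TAGLN and a second pair of TPM1 also passed. The TPM1 pair with ILMN_1685339 had an adjusted p of 0.0620 to 0.152 in the 5 of 6 cases without 1 array in which it was lost, 0.0576 with median scaling and 0.0588 with probes detected on all 6 arrays. Without background correction the fitted fold was 2.88 for CALD1, against 10.9, and with the mean of a gene's probes it was 3.32 for CALD1 and 3.46 for MYLK. Leaving out the arrays numbered 1, chosen after seeing the data, gave 28 falls and 4 rises. Signal over background limits the folds of CALD1, MYLK and DIAPH3 and the change of TLN2.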
